A study of Mus musculus with 6 samples.

Results

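Pleiotrophin (Ptn) and midkine (Mdk), a pair of secreted heparin-binding growth factors, and the 4 syndecans (Sdc1, Sdc2, Sdc3 and Sdc4), cell surface proteoglycans that bind them, were followed in cultured mouse chondrocytes with and without Ppp1r15b. They are 6 of the 17666 genes of the deposited gene table, taken by symbol, and all 6 passed the filter on low counts. The genes were chosen by their role and by their estimated counts in these WT and KO libraries, KO replicate 3 included, so the differences between KO and WT in the 6 genes are given as a description, with no test. The 3 WT libraries came from Prx1-Cre;Rosa26mT/mG newborn mice (P0) and the 3 KO libraries from Ppp1r15bPrx1;Rosa26mT/mG newborns, so that both groups carried the Cre driver and the reporter and Ppp1r15b was targeted in the KO group only, where Prx1-Cre had acted. Prx1-Cre is active in early limb mesenchyme, and the mT/mG reporter turns from red to green fluorescence in cells where Cre has acted. Green cells were sorted from knee joints and, per the growth protocol, kept in DMEM until they became mature chondrocytes, whereas the series design text names no culture step. Whether the libraries of one group stem from separate animals or cultures is not stated in the labels, and any p-value reflects only how these samples vary, possibly for technical reasons.

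Pleiotrophin and midkine form a family of their own. Both are basic, cysteine-rich proteins that bind the sulfated sugar chains of proteoglycans, and their signalling receptors include the phosphatase PTPRZ1, the kinase ALK, the endocytic receptor LRP1 and integrins. Syndecans carry heparan sulfate on an outer domain that proteases can shed, cross the membrane once, and end in a short tail that binds PDZ proteins such as syntenin. Pleiotrophin is abundant in developing cartilage, and syndecan-3, first described in nerve cells as a pleiotrophin receptor, is also made by growth plate chondrocytes. Ppp1r15b encodes CReP, a subunit that directs a phosphatase to the translation factor eIF2alpha.

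The genes lie on different chromosomes except for Mdk and Sdc4, which are both on chromosome 2. In the GRCm38.p6 build (mm10), Ptn (Entrez gene 19242) runs from 36714924 to 36810179 on chromosome 6, and Mdk (17242) from 91929805 to 91932297 on chromosome 2. Sdc1 (20969) runs from 8771396 to 8793716 on chromosome 12 and Sdc2 (15529) from 32920723 to 33034721 on chromosome 15. Sdc3 (20970) runs from 130792537 to 130826318 on chromosome 4 and Sdc4 (20971) from 164424247 to 164443188 on chromosome 2. RefSeq also lists a midkine pseudogene, Mdk-ps1, so Mdk counts are uncertain as far as reads match both.

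The promoters of Ptn, Sdc1, Sdc3 and Sdc4 are shown because these are the 4 of the 6 genes with an entry in the promoter table used. The 4 sequences are the 250 bases before each RefSeq start in GRCm38.p6, read along the gene's strand: chr6:36810180-36810429 (minus strand) for Ptn, chr12:8771146-8771395 (plus strand) for Sdc1, chr4:130792287-130792536 (plus strand) for Sdc3 and chr2:164443189-164443438 (minus strand) for Sdc4. Capitals mark matches, on either strand and with overlaps allowed, to the GC box GGGCGG and, in Sdc3, to TGACGT, the core of the cAMP response element.
Ptn: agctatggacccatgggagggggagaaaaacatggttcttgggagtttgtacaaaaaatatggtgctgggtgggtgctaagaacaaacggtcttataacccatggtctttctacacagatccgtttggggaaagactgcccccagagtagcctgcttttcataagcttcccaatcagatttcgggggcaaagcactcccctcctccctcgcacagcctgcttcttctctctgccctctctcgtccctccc
Sdc1: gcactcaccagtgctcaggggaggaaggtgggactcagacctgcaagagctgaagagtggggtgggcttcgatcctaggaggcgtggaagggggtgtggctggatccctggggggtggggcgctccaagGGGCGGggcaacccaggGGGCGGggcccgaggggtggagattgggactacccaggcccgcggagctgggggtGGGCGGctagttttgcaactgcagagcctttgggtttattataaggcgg
Sdc3: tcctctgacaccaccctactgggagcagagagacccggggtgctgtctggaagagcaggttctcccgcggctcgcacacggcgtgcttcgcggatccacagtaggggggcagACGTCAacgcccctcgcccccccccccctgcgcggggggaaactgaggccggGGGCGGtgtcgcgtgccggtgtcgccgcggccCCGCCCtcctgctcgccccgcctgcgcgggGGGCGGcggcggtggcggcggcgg
Sdc4: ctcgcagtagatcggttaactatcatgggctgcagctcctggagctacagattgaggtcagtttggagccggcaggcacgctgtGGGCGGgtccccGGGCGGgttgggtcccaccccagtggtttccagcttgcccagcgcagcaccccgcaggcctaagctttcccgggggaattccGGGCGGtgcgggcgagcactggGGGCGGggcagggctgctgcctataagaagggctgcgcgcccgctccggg
The GC box matched 3 times in the Sdc1, 3 times in the Sdc3 and 4 times in the Sdc4 window, and it did not match in the Ptn window. Of 32851 mouse promoter windows of that length, 32.7% held it. TGACGT matched once in Sdc3, and 6.47% of all windows held it. The letters TATAAA (12.4% of windows), CACGTG (6.02%) and TGATGNAAT, a form of the element bound by ATF4 with C/EBP factors (0.816%), were in none of the 4. The Ptn window was 52.0% G or C, against 66.0% for Sdc1, 76.4% for Sdc3 and 68.0% for Sdc4, where the median of all windows was 52.4%. These matches describe the letters only.

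Libraries held 18380880 to 19643951 estimated counts. Ppp1r15b itself lay at 52.2 to 89.2 CPM (counts scaled for library size, with TMM factors) in WT and at 19.3 to 27.5 CPM in KO, with a KO minus WT log2 difference of -1.70 ± 0.242 (SE) and an adjusted p of 0.0297 in edgeR's quasi-likelihood test. Chondrocyte markers were present in all libraries, with Col2a1 at 25053 to 35327 CPM and Sox9, which encodes the chondrocyte master regulator, at 254 to 360.2 CPM. Markers of other cells, among them Col1a1, were present as well and are given below. KO replicate 3 stood apart: across genes, r of log2 CPM was 0.9935 for KO replicates 1 and 2, but 0.9346 and 0.9337 when KO replicate 3 was set against them. Among WT libraries r was 0.9938 for replicates 1 and 3, and 0.9823 and 0.9819 when WT replicate 2 was set against them. WT replicate 2 thus differed from the other WT libraries, though by less than KO replicate 3 from the other KO libraries. Over all genes, 344 of 13692 (2.51%) were called at an adjusted p under 0.05 by the edgeR quasi-likelihood test of KO against WT, and 3962 of 13880 (28.5%) without KO replicate 3. Results are therefore given with and without that library.

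Ptn, the pleiotrophin gene, was the most variable of the 6. Its level was 142, 90.6 and 106 CPM in WT replicates 1 to 3, and 645, 608 and 21.1 CPM in KO replicates 1 to 3. KO replicates 1 and 2 thus lay far above every WT library and KO replicate 3 far below every one, and the groups overlapped because of that library alone. KO replicates 1 and 2 averaged 5.55 times the WT mean, KO replicate 3 held 18.7% of it, and the mean of KO replicates 1 and 2 was 29.7 times the value of KO replicate 3. The estimated counts behind these levels were 2793, 1666 and 1998 in WT and 11874, 11091 and 427 in KO. In bulk RNA, fewer cells of one type and less RNA per cell cannot be told apart.

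The summary of Ptn over the groups hides this split. WT averaged 113 ± 26.3 CPM and KO 425 ± 350.1 CPM (SD, n = 3 each), and its fitted log2 fold change was 1.91 (SE 1.04). The estimate was 2.47 (SE 0.164) without KO replicate 3. A fit on log values, limma-voom, gave 0.88 with all 6 libraries, since it averages logarithms and so gives the low library more weight. The gap between KO replicate 3 and the mean of the other KO libraries was -4.88 in log2 CPM, the fifth lowest of 13692 tested genes, where the median size of that gap was 0.31. The genes were chosen with KO replicate 3 known, so this rank, like that of Mdk below, is a description.

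Mdk, the midkine gene, was also low in KO replicate 3, but was not as high as Ptn, relative to WT, in the other KO libraries. It lay at 33.4, 35.4 and 31.4 CPM in WT and at 39.7, 37.8 and 4.65 CPM in KO replicates 1 to 3. KO replicates 1 and 2 were slightly above all WT libraries, at 1.16 times the WT mean, and KO replicate 3 held 13.9% of that mean. WT averaged 33.4 ± 1.97 CPM and KO 27.4 ± 19.7 CPM (SD, n = 3 each). The log2 fold change was -0.29 (SE 0.683), and it was 0.22 (SE 0.0667) without KO replicate 3, so that its sign rests on that library. The gap of KO replicate 3 to the other KO libraries was -3.03 in log2 CPM, and 0.57% of tested genes had a lower one.

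**Figure D1:**
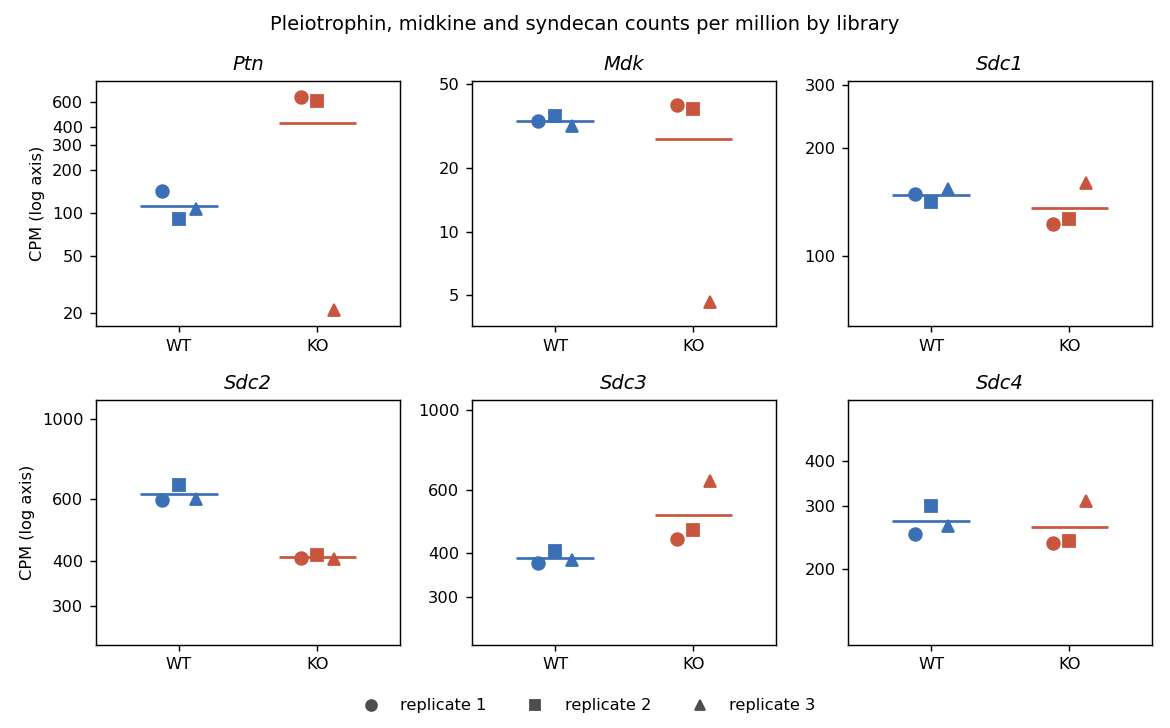
CPM (log axis, own range in each panel) of the 6 genes in each of 3 WT (blue) and 3 KO (red) libraries, with symbols for the replicate number and a line at the group mean. Ptn and Mdk are lowest in KO replicate 3 (21.1 and 4.65 CPM), Sdc1, Sdc3 and Sdc4 are highest there, and Sdc2 lies near 410 CPM in all 3 KO libraries.

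Sdc2, the syndecan most abundant per length in WT, varied least of the 6 among the KO libraries. It lay at 595, 653 and 599 CPM in WT replicates 1, 2 and 3, and at 410, 417 and 407 CPM in the KO replicates in that order. All KO libraries were below all WT libraries, and KO replicate 3 did not stand apart. The KO libraries held 66.6%, 67.7% and 66.1% of the WT mean. WT averaged 616 ± 32.2 CPM and KO 411 ± 4.78 CPM (SD, n = 3 each). The fitted difference on the log2 scale was -0.58 (SE 0.0747), or -0.57 (SE 0.0608) without KO replicate 3.

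Sdc3, the syndecan described as a pleiotrophin receptor, lay higher in every KO library. It was at 375, 404 and 382 CPM in WT and at 437, 462 and 633 CPM in KO replicates 1 to 3. KO replicates 1 and 2 exceeded the highest WT library by little, and KO replicate 3 held 164% of the WT mean. WT averaged 387 ± 15.3 CPM and KO 510.4 ± 107 CPM (SD, n = 3 each). The log2 fold change was 0.40 (SE 0.153) with all libraries and 0.22 (SE 0.0582) without KO replicate 3.

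Sdc1 and Sdc4 had like profiles across the KO libraries. Their WT libraries differed in order, with WT replicate 2 the lowest for Sdc1 and the highest for Sdc4. Sdc1, known best from epithelia and plasma cells, lay at 149, 142 and 154 CPM in WT and at 123, 127 and 160.1 CPM in KO replicates 1 to 3. Sdc4, a component of focal adhesions, lay at 251, 301 and 263 CPM in WT and at 237, 239 and 309 CPM in KO. In both genes KO replicates 1 and 2 were below all WT libraries and KO replicate 3 was above them, so that the groups overlapped. The log2 fold change of Sdc1 was -0.12 (SE 0.116), and -0.24 (SE 0.0616) without KO replicate 3. That of Sdc4 was -0.05 (SE 0.134), and -0.19 (SE 0.0774) without that library.

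Among the 6 genes, Sdc2 was called over all 6 libraries, beside 2.51% of all tested genes, and the groups of 2 genes (Sdc2 and Sdc3) did not overlap, beside 28.4% (14% with KO above, as for Sdc3, and 14.5% with KO below, as for Sdc2). Without KO replicate 3, 3 were called higher (Ptn, Mdk and Sdc3) and 2 lower (Sdc1 and Sdc2), beside 12.5% and 16.1% of all genes. These counts use the contrast the genes were proposed on and are descriptions. On leaving out any one of WT 1, WT 3, KO 1 and KO 2 (in that order), 0 genes of the whole table were called by edgeR (1555, 1572, 2345 and 2128 at an unadjusted p under 0.05), so the call of Sdc2 was also lost.

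**Figure D2:**
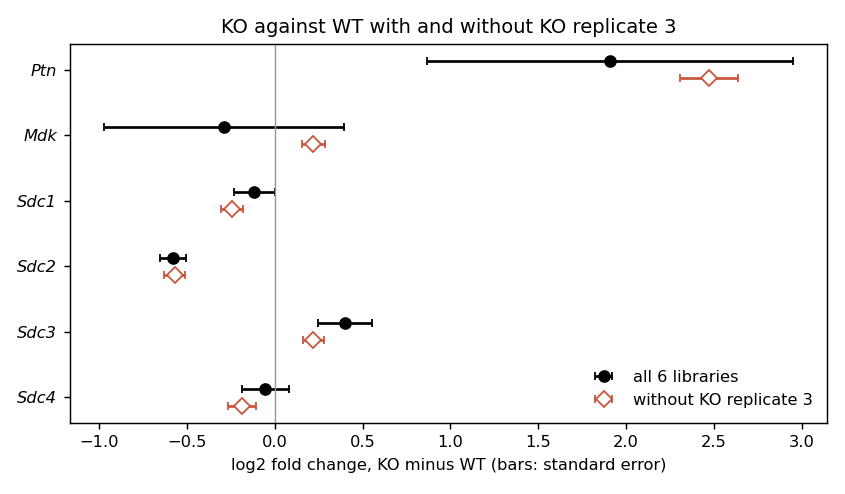
Log2 fold change of KO against WT (x axis) for each of the 6 genes, from all 6 libraries (black circles) and without KO replicate 3 (open red diamonds), with bars for the standard error from the edgeR fit. Sdc2 stays at -0.58 and -0.57, Mdk moves from -0.29 to 0.22, and the standard error of Ptn drops from 1.04 to 0.164.

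Levels between genes were compared per transcript length, in TPM, the deposited share of transcripts scaled to a fixed total. In WT the order of mean levels was Sdc2 (412 ± 9.83 TPM), Sdc4 (246 ± 16.2), Sdc3 (175 ± 2.55), Ptn (170.1 ± 43.6), Sdc1 (108 ± 7.08) and Mdk (98.2 ± 4.23; SD, n = 3 each). Sdc2 was the highest and Sdc4 the next in all 3 WT libraries. The ranges of Sdc3 and Ptn overlapped, as did those of Sdc1 and Mdk, so neither pair was parted beyond its spread. In KO the mean order was Ptn (649 ± 533 TPM), Sdc2 (281 ± 7.82), Sdc4 (243 ± 41.8), Sdc3 (236 ± 52.8), Sdc1 (102 ± 16.8) and Mdk (81.5 ± 58.3). That order held in no single library throughout: Ptn was the first of the 6 in KO replicates 1 and 2, with 971 and 943 TPM, and the fifth in KO replicate 3, with 33.3 TPM. In KO replicate 3 Sdc3 came first, with 296 TPM, close to Sdc4 at 291 TPM and Sdc2 at 282 TPM. Against the whole table of 17666 genes, Ptn held rank 151 and 155 by TPM in KO replicates 1 and 2, ranks 727 to 1272 in WT and rank 4929 in KO replicate 3.

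The 4 syndecans together were steadier than the ligands. Their summed level was 921, 965 and 937 TPM in WT replicates 1, 2 and 3, and 772, 823 and 989 TPM in the KO replicates in that order, so that the groups overlapped. Within that sum the share of Sdc2 was 43.8 ± 0.372% for WT and 33.0 ± 3.86% for KO, and that of Sdc3 was 18.6 ± 0.185% for WT and 27.2 ± 2.39% for KO (SD, n = 3 each). Every KO library had a smaller share of Sdc2 and a larger share of Sdc3 than every WT library, with KO replicate 3 the most extreme at 28.5% and 29.9%. Shares of one sum depend on each other. Sdc2 itself lay at 273, 289 and 282 TPM in KO replicates 1 to 3, so it was not lowest in KO replicate 3. These shares are built from the values the genes were chosen on and are a description. The share of Sdc1 was 10.4% to 12.1% in WT and 11.5% to 12.2% in KO.

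The ligand level in relation to the syndecans spanned a wide range. Ptn and Mdk together came to 0.345, 0.240 and 0.272 TPM per TPM of syndecan in WT replicates 1 to 3. The same quotient was 1.41 and 1.28 in KO replicates 1 and 2 and 0.0481 in KO replicate 3. Ptn exceeded Mdk in every library, by 1.31 to 2.16 times in WT, 8.34 and 8.28 times in KO replicates 1 and 2 and 2.33 times in KO replicate 3. The Ptn to Mdk quotient of KO replicate 3 was thus close to the highest WT value, although both genes were low there.

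**Figure D3:**
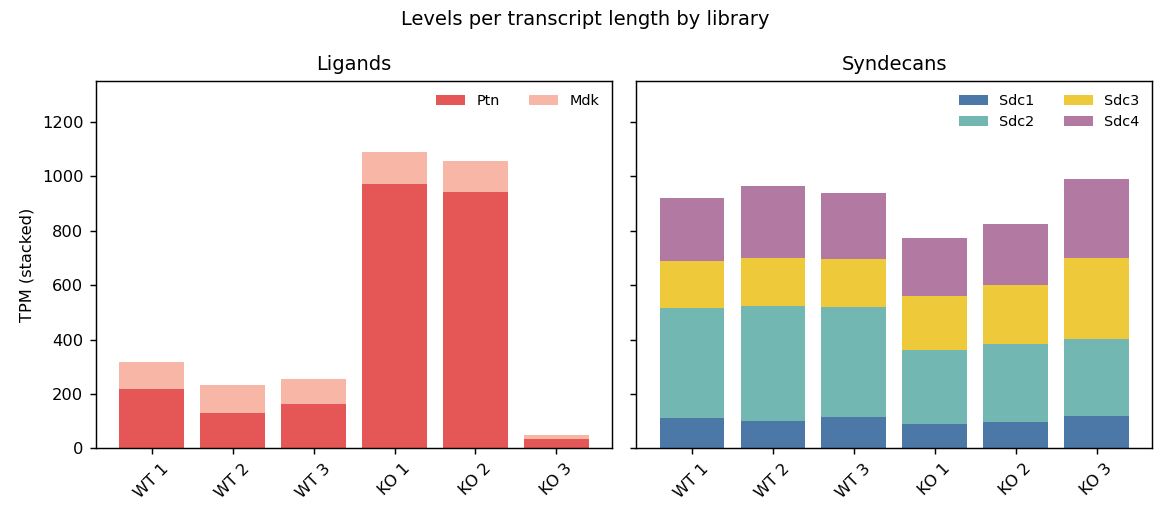
Stacked TPM values of the ligands Ptn and Mdk (left) and of the 4 syndecans (right) in each library, on a shared axis from 0. The ligand bars reach 1087 and 1057 TPM in KO replicates 1 and 2 and 47.6 TPM in KO replicate 3, while the syndecan bars run from 772 to 989 TPM.

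Several RefSeq transcripts are counted for 4 of the genes, and their shares within a gene are a readout that the choice of genes did not use. For Ptn, transcript NM_008973.2 took 38.8%, 39.0% and 39.3% of the estimated counts in WT replicates 1, 2 and 3, and 37.0%, 39.2% and 36.1% in the KO replicates in that order, and XM_006505757.3 took the rest. The share thus stayed within a few percentage points although the level of Ptn spanned more than an order of magnitude. The mean was 39.0 ± 0.215% over WT and 37.5 ± 1.58% over KO libraries (SD, n = 3 each; p = 0.3 by an exact two-sided permutation test, adjusted p = 0.686). Of 5 Mdk transcripts, XM_011239335.2 had the largest difference. It took 35.9%, 39.3% and 34.7% in WT and 32.3%, 25.8% and 21.0% in KO replicates 1 to 3, so that the groups did not overlap, with means of 36.7 ± 2.38% and 26.4 ± 5.67% (SD, n = 3 each; exact permutation p = 0.1, adjusted p = 0.686). For Sdc3, NM_011520.3 took 54.8 ± 5.21% for WT and 55.6 ± 9.39% for KO (SD, n = 3 each; exact permutation p = 0.8, adjusted p = 0.873). In Sdc1, NM_011519.2 took at least 98.4% in every library. P-values were adjusted over 12 transcripts, and 3 libraries against 3 cannot give a p below 0.1, so a shift in transcript use was not detectable by this test. The counter estimates these splits from shared reads, and in KO replicate 3 the Mdk shares rest on 94 counts.

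Genes that act on the ligands and syndecans were counted next, in 6 lists of 115 genes by role, of which 101 were tested. Sulf1 was the only listed gene called over all 6 libraries, beside 2.51% of all tested genes: 1 fell, 0 rose and 100 were not called (edgeR; 26 at an unadjusted p under 0.05; 6 rose and 5 fell with DESeq2, and 0 rose and 1 fell with limma-voom). Over all 13692 tested genes, 2627 had an unadjusted p under 0.05 in edgeR. Of the same 13692 genes, DESeq2 called 497 higher and 674 lower, and limma-voom 96 and 176. The same background holds for the counts of each list below. Sulf1 encodes a secreted enzyme that removes sulfate groups from the 6-O position of heparan sulfate chains. It lay at 167, 195 and 174 CPM in WT and at 93.2, 103 and 106 CPM in KO replicates 1 to 3. All KO libraries were below all WT libraries, including KO replicate 3. WT averaged 179 ± 14.4 CPM and KO 101 ± 6.69 CPM (SD, n = 3 each). Sulf1 thus fell by 0.83 on the log2 scale (SE 0.0897) with an adjusted p of 0.0188 in the edgeR quasi-likelihood test. The call was lost on leaving out any one of WT 1, WT 3, KO 1 and KO 2 (in that order, edgeR adjusted p = 0.108, 0.121, 0.0919 and 0.106), where the estimates lay between -0.87 and -0.77. Its relative Sulf2 was at 332 ± 6.45 CPM for WT and 329 ± 16.3 CPM for KO (edgeR adjusted p = 0.946).

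Of 17 tested receptors and other partners of pleiotrophin and midkine, 0 were called (edgeR; 1 at an unadjusted p under 0.05, and 0 with DESeq2 or limma-voom). The most abundant were Lrp1, with a mean of 1785 ± 111 CPM for WT and 1762 ± 351 CPM for KO (SD, n = 3 each; log2 fold change -0.02, edgeR adjusted p = 0.971), and the integrin subunit Itgb1, at 727 ± 9.62 and 739 ± 110 CPM (0.02, adjusted p = 0.945). The best known signalling receptors were scarce: Ptprz1 lay at 1.15 ± 0.641 CPM in WT and 0.828 ± 0.869 CPM in KO, and Alk reached at most 6 counts in a library and was not tested. Ptprz1, Alk and the further genes named here beyond the most abundant of each list were chosen after their values were seen. When KO replicate 3 was left out, 1 among these 17 rose (Lrp6, 0.63, edgeR adjusted p = 0.00148) and 2 fell (Lrp8 and Itga4), beside 12.5% and 16.1% of all genes.

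Of 11 tested glypicans and other heparan sulfate proteoglycans, 0 were called (edgeR; 3 at an unadjusted p under 0.05; 2 rose and 0 fell with DESeq2, 0 with limma-voom). Hspg2, which encodes perlecan of the pericellular matrix, lay at 1550.3 ± 41.7 CPM for WT and 1682 ± 219 CPM for KO (SD, n = 3 each; log2 fold change 0.12, edgeR adjusted p = 0.668). Gpc6, a membrane-anchored glypican, lay at 192 ± 18.5 and 321 ± 69.4 CPM (0.74, adjusted p = 0.0816), with all KO libraries above all WT libraries. When KO replicate 3 was left out, 6 among these 11 rose and 3 fell, beside 12.5% and 16.1% of all genes. Gpc6 (0.56, edgeR adjusted p = 0.00261), Gpc3 (0.77, 1.87e-04) and Tgfbr3, a co-receptor for TGF-beta, rose there, and Cd44, the hyaluronan receptor, fell (-0.99, 1.73e-04).

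Heparan sulfate chains are started and lengthened by 1 group of enzymes and sulfated or trimmed by another. Of 16 tested synthesis genes, 0 were called (edgeR; 5 at an unadjusted p under 0.05; 1 rose and 2 fell with DESeq2, 0 with limma-voom). The most abundant were the chain-lengthening enzyme Ext2 (log2 fold change 0.15, edgeR adjusted p = 0.346) and Ugdh, which makes the sugar donor UDP-glucuronate (-0.10, adjusted p = 0.733). Pxylp1, the phosphatase of the xylose in the linker, was nearest to the threshold (-0.74, adjusted p = 0.0536). Of 22 tested genes of modification and breakdown, Sulf1 fell, 0 rose and 21 were not called (edgeR; 8 at an unadjusted p under 0.05; 3 rose and 1 fell with DESeq2, 0 rose and 1 fell with limma-voom). Without KO replicate 3, 2 synthesis genes rose and 4 fell, and 6 modification and breakdown genes rose and 4 fell, beside 12.5% and 16.1% of all genes.

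Of 22 tested partners of the syndecan tail, 0 were called (edgeR; 5 at an unadjusted p under 0.05; 0 rose and 1 fell with DESeq2, 0 with limma-voom), and without KO replicate 3, 2 rose and 6 fell, beside 12.5% and 16.1% of all genes. Sdcbp, the gene of syntenin, was at 210.05 ± 3.85 CPM for WT and 210.1 ± 46.8 CPM for KO (SD, n = 3 each; edgeR adjusted p = 0.999). The most abundant were Arhgdia, which encodes an inhibitor of small GTPases (log2 fold change -0.12, adjusted p = 0.722), and the actin cross-linker gene Actn4 (-0.27, adjusted p = 0.258). Of 13 tested sheddases and their inhibitors, 0 were called (edgeR; 4 at an unadjusted p under 0.05; 0 rose and 1 fell with DESeq2, 0 with limma-voom), and without KO replicate 3, 2 rose and 4 fell, beside the same shares of all genes. The inhibitors Timp3 (0.23, adjusted p = 0.782) and Timp2 (0.01, adjusted p = 0.989) were the most abundant. Timp1 lay at 304 to 335 CPM in WT and at 153, 131 and 254 CPM in KO replicates 1 to 3 (-0.85, adjusted p = 0.143) and fell without KO replicate 3 (-1.19, adjusted p = 1.13e-04). The median log2 fold change over all 101 listed genes was 0.03, beside 0.01 over all tested genes.

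**Figure D4:**
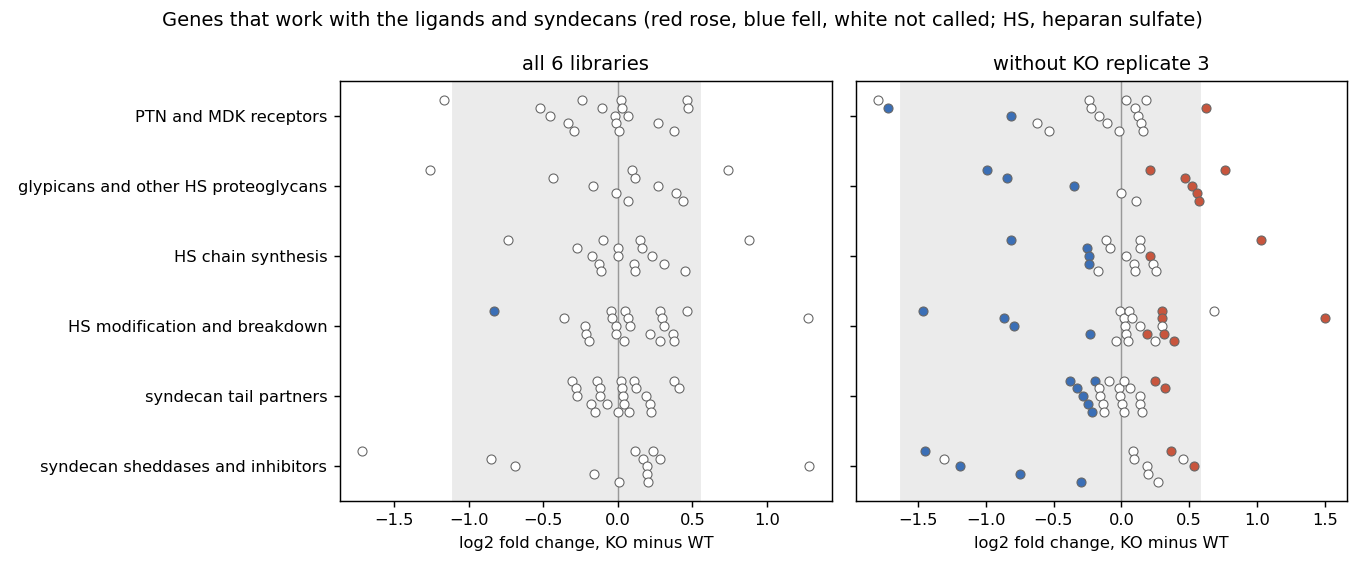
Log2 fold change of KO against WT (x axis) for each tested gene of the 6 lists (rows), with all 6 libraries (left) and without KO replicate 3 (right). Filled points passed an edgeR adjusted p of 0.05, and the grey band holds the central 90% of all tested genes. Sulf1 is the only filled point on the left, and 19 of 101 rose and 23 fell on the right, beside 12.5% and 16.1% of all genes.

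The genes most like each of the 6 were found by the root mean square difference between log2 CPM profiles, each centred on its own mean over the 6 libraries, among 11848 genes with a mean log2 CPM above 1. For Ptn these were Lgi2 (difference 0.39), Sfrp2 (0.46) and Gdpd2 (0.47). Sfrp2, which encodes a secreted Wnt modulator, lay at 938 to 1172 CPM in WT, at 3314 and 3232 CPM in KO replicates 1 and 2 and at 115 CPM in KO replicate 3. For Mdk they were Fgf14 (0.08), Itgbl1 (0.10) and Tspan11 (0.11), and Itgbl1 lay at 67.2 to 69.9 CPM in 5 libraries and at 9.0 CPM in KO replicate 3. For Sdc2 they were the gap junction gene Gja1 (0.05), the intermediate filament gene Vim (0.05) and Prdx5 (0.06). For Sdc1 they included Nup50 (0.02) and Kalrn (0.02), for Sdc3 Taf15 (0.04), Itga6 (0.04) and Arl10 (0.04), and for Sdc4 Dym (0.03), Bmp5 (0.04) and Atp6v1a (0.04). Small differences are easier to reach for genes that vary little, and the measure was 0.11 between Sdc1 and Sdc4, 1.06 between Ptn and Mdk and 1.79 to 1.83 between Ptn and each syndecan.

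Markers of other cells moved with some of these levels. All 8 fibroblast and perichondrium markers (Pdgfra, Dcn, Col1a1, Col3a1, Postn, Thy1, Dpt and Lum) were lower in KO replicate 3 than in the other KO libraries and in every WT library. Their summed level was 14918 to 19825 CPM in WT, 16381 and 16726 CPM in KO replicates 1 and 2 and 4645 CPM in KO replicate 3, as Ptn and Mdk were low there. The summed chondrocyte markers, most of the sum Col2a1, were 36274 to 48532 CPM in WT and 39333, 40986 and 40285 CPM in KO replicates 1 to 3. In KO replicate 3, 6 of 12 markers were lower and 4 higher than in both other KO libraries. The sum hides differences between the groups: 2 of the 12 rose and 0 fell by the edgeR test, beside 0.884% and 1.63% of all genes. Col9a2, Col11a2, Matn1, Hapln1 and Snorc lay above every WT library in every KO library, as did 14% of all tested genes. No other chondrocyte marker was parted from WT. In KO replicates 1 and 2 Ptn lay above every WT library. The fibroblast and perichondrium sum there, most of it Col1a1, lay within the WT range. Its members differed: in KO replicates 1 and 2 Pdgfra, Col3a1 and Postn were above every WT library, and Dcn, Lum and Thy1 below every one. Col1a1 and Dpt were within the WT range. The 10 skeletal muscle markers were all higher in KO replicate 3 than in the other KO libraries. Their sums were 554, 66.5 and 501 CPM in WT replicates 1 to 3 and 15.0, 13.9 and 219.8 CPM in KO. The macrophage sum was 312, 174 and 313 CPM in WT and 12.2, 13.1 and 135 CPM in KO. By the edgeR test 0 of 9 tested skeletal muscle markers were called. Of 8 tested macrophage markers 1 fell and 0 rose, beside 1.63% and 0.884% of all genes. The summed adipocyte markers were low in all KO libraries (43.1 to 47.5 CPM, against 889, 442 and 773 CPM in WT replicates 1 to 3). All 8 fell by the edgeR test, beside 1.63% of all genes. Endothelial (6.47 to 11.6 CPM summed) and epithelial markers (0.652 to 1.31 CPM summed) were near 0 in all 6 libraries, with Krt5 and Krt14 at 0 in most of them. Osteoblast markers summed to 17.3 to 32.9 CPM, and Schwann cell and neuron markers to 103 to 183 CPM, mostly S100b, which chondrocytes also make. Hypertrophic markers summed to 1174 to 1258 CPM in WT and to 512, 512 and 1061 CPM in KO replicates 1 to 3. Most of the sum in KO replicate 3 was Spp1 (826 CPM). Of the 8 hypertrophic markers, 5 (Col10a1, Mmp13, Ibsp, Alpl and Runx2) were below every WT library there, and Spp1, Ihh and Panx3 above every one. Over all 6 libraries, 3 of 7 tested hypertrophic markers fell and 0 rose by the edgeR test, beside 1.63% and 0.884% of all genes. The part of these cells in the levels of Ptn, Mdk and the syndecans was not tested.

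**Figure D5:**
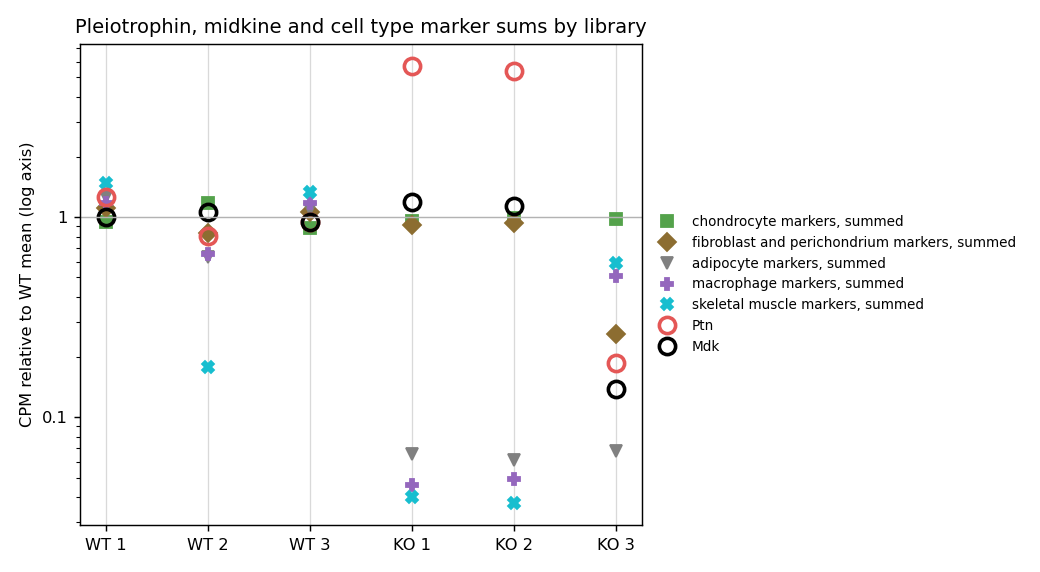
Level of Ptn and Mdk (open circles) and summed level of 5 lists of cell type markers (filled symbols) in each library, relative to the WT mean (log axis). Ptn stands at 5.71 and 5.38 in KO replicates 1 and 2 and at 0.187 in KO replicate 3, where Mdk stands at 0.139 and the fibroblast and perichondrium markers are low as well.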

How the data were processed

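RNA-seq of 3 WT and 3 KO libraries, grouped by their titles, was analysed from the tables the authors deposited. Per the labels' protocols, STAR 2.7.5a, mm10, GENCODE vM25, featureCounts 2.0.0 and DESeq2 1.28.1 were used. The deposited tables hold estimated counts (12.9% not whole, tolerance 0.001) under Entrez and RefSeq identifiers instead, and the program behind them is not given in the sources used here. Strand setting is not given either. The authors also deposited TPM and FPKM, scaled for length and depth; TPM served to compare genes, FPKM as an alternative.

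Estimated counts were rounded, kept by filterByExpr (minimum count 10, total 15) and TMM-scaled, and a model with the group alone was fitted with edgeR 4.0.16 (limma 3.58.1, R 4.3.3), with Benjamini-Hochberg adjustment over 13692 genes. A gene is called, or said to rise or fall, at an adjusted p below 0.05. The standard error is the log2 fold change over the square root of F. CPM used TMM-scaled library sizes; log2 CPM a prior count of 2. The common dispersion was 0.0525. Transcript shares used transcripts with a mean of at least 10 counts. Names follow a written rule: the 6 genes, Ppp1r15b, called genes of each list or its 2 most abundant, and the 3 most alike genes, of which 1 is not reported here; other listed genes were named after their values were seen. The members, lists and rules were chosen with earlier results of these data known. Alternatives were other scaling, DESeq2 1.42.0, limma-voom, other filters, a replicate block and libraries left out. Scripts were tested on simulated data. Promoters are RefSeq, GRCm38.p6, for 4 of the 6 genes; 17551 of 17666 gene identifiers matched RefSeq.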

Additional observations from a re-analysis of the deposited data

How the results depend on the processing

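Sdc2 stayed between -0.61 and -0.53 on the log2 scale, Sdc3 between 0.22 and 0.50 and Ptn between 0.88 and 2.47 under all 14 alternatives, while Mdk ran from -0.85 to 0.25 and Sdc4 from -0.19 to 0.03. Sdc1 was at -0.28 without WT replicate 2 and KO replicate 3. The order of mean levels was the same in FPKM. Calls over all genes were 121 up and 223 down, and 497 and 674 with the DESeq2 Wald test; 148 were down with at least 1 CPM in all 6 libraries. With one library left out they ran from 0 to 1731 up and from 0 to 2231 down (37 and 139 without WT replicate 2), and without WT replicate 2 and KO replicate 3 they were 2416 and 3000. Over the 6 lists, 0 rose and 1 fell, against 6 and 5 with DESeq2, 0 to 19 and 0 to 23 with one library left out, and 27 and 30 without those 2 libraries. With the replicate number as a block, 1 gene rose and 4 fell, and 0 listed genes fell (Sulf1 adjusted p = 0.0927 by edgeR). The deviations of same-numbered WT and KO libraries correlated at -0.143, 0.215 and 0.238. Those of WT replicate 2 and KO replicate 1 correlated at 0.255, and those of WT replicate 1 and KO replicate 3 at 0.151. The replicate numbers were therefore not taken to pair the libraries. The cause was not tested for any of these.

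Differences in transcript share changed sign with one library left out for Mdk NM_001012335.2 (-1.43 to 0.95 percentage points), Mdk NM_001291481.1 (-0.62 to 8.75), Sdc1 XM_006515045.1 (-0.10 to 0.35), Sdc3 NM_011520.3 (-4.28 to 4.95) and Sdc3 XM_017320091.1 (-4.95 to 4.28). Without WT replicate 2 and KO replicate 3 the Mdk pair was at 1.54 and -1.80.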
